A study of Homo sapiens with 36 samples.

Results

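The genes of HLA class II antigen presentation described here are HLA-DRA, HLA-DPA1, HLA-DMA, CD74 and CIITA, 5 of the 19775 genes that a probe set with 1 gene symbol represented on the arrays. They were chosen by name as members of the pathway, with every probe set annotated to them, which gave 12 probe sets (2 for HLA-DRA, 3 for HLA-DPA1, 1 for HLA-DMA, 3 for CD74 and 3 for CIITA). Earlier results of these data were known when the members and the lists of related genes used below were chosen. Counts set beside the share of all genes are thus a description. All 5 genes and 10 of the 12 probe sets passed the filter on low values and were tested. Each gene is given by its probe set with the highest mean. Its level is given in every line, and its fraction difference within a line is given where the mean cell body intensity in that line was 100 or more. Some changes below that minimum are given as well and marked so.

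Class II molecules are pairs of an alpha and a beta chain, such as HLA-DRA with HLA-DRB1 or HLA-DPA1 with HLA-DPB1, that carry peptides from endosomes to the cell surface and show them to CD4+ T cells. CD74, the invariant chain, holds the groove of new class II molecules closed and guides them to endosomes, where cathepsins and legumain degrade proteins and CD74 itself, and where HLA-DM, the pair of HLA-DMA and HLA-DMB, exchanges the last piece of CD74 for a peptide. CIITA is the transcriptional coactivator that turns these genes on. It is active in B cells, dendritic cells and macrophages, and interferon gamma can induce it in many other cells, tumour cells included.

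The study set the pseudopod fraction (PS) of 6 human cancer cell lines against their cell body fraction (CB) on 36 Affymetrix HG-U133 Plus 2.0 arrays, 3 for each line and fraction. Cells sat for 24 hours on porous filters, and the pseudopods on the lower side and the cell bodies on the upper side were scraped off separately, without any added agent per the labels. The glioblastoma lines U87 and U251 and the fibrosarcoma line HT1080 were kept in DMEM with serum. The prostate carcinoma line DU145, the breast carcinoma line MDA231 and MDA435, a line with some melanocytic gene expression, were kept in RPMI-1640 with serum. Both fractions of a line thus shared their medium. Of 9 melanocytic markers, 6 were at 100 or more in the cell bodies of MDA435, against 2 or 3 in the other lines. PMEL (22.5), MLANA (14.3) and TYRP1 (27.9) were low in the cell bodies of MDA435. Labelling started with 100 ng of RNA and ran through 2 cycles, per the labels. No label says that the 3 replicates of a group were separate cultures, so p-values measure the spread between these arrays, which may be technical. Intensity is relative to the array as a whole, so a smaller amount of a transcript and a larger amount of other RNA in a fraction cannot be told apart.

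The regulatory sequence upstream of class II genes is known for a conserved run of elements, among them the X box, bound by the RFX complex and CREB1, and the Y box, an inverted CCAAT sequence bound by NF-Y; CIITA is recruited to the proteins bound there. The promoter windows of CD74 and HLA-DMA are shown because both genes were lower in pseudopods and both windows hold the letters ACNNNTGAT, taken for part of an X box, near a CCAAT on either strand. The windows run from 250 bases before to 50 bases after the annotated start in RefSeq (GRCh38.p14): chr5:150412861-150413160, minus strand, for CD74, and chr6:32953048-32953347, minus strand, for HLA-DMA. Capitals mark the letters ACNNNTGAT and CCAAT, both searched on both strands, so that a CCAAT on the other strand appears as ATTGG. The CCAAT of the CD74 window is not inverted, and those of the HLA-DMA window are.
CD74: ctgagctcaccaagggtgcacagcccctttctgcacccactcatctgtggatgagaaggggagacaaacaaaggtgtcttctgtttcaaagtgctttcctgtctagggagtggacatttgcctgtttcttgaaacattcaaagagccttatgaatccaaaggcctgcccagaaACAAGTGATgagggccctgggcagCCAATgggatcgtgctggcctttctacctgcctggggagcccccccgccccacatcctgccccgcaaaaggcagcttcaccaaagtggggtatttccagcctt
HLA-DMA: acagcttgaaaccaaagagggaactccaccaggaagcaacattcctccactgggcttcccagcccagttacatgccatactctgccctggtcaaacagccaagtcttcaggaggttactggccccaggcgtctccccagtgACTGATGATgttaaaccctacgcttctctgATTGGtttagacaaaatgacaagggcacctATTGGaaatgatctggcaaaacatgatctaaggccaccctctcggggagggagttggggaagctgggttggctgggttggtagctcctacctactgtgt
Of 35116 windows of the same length, 6.30% held ACNNNTGAT, 34.6% held CCAAT and 1.17% held both with their centres within 40 bases. Of 14 windows of class II genes, 5 held ACNNNTGAT, 12 held CCAAT and 4, those of CD74, HLA-DMA, HLA-DRB1 and HLA-DRB5, held both within 40 bases. The letters ACNNNTGAT were chosen after these windows were seen, and they were shortened by a base after the counts of a longer form were known (fewer windows held that form), so the counts are a description only. Neither of the 2 HLA-DPA1 windows held either motif, which says only that these letters are not in these windows. HLA-DRA and CIITA are named only.

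In the average of the 6 lines, the transcripts of the antigen-presenting chains and of their chaperones were lower in pseudopods than in cell bodies. That of their regulator CIITA was not called. The average includes U251, where no member had a mean cell body intensity above 34.9. HLA-DRA was 2.12-fold lower on average, HLA-DPA1 1.99-fold, CD74 1.79-fold and HLA-DMA 1.45-fold. In limma, 4 of the 5 genes were called lower and 0 higher at an adjusted p under 0.05, where 20.8% of all 15399 genes tested were called lower and 29.5% higher. The median change of the 5 genes was -0.84 on the scale of log2(intensity + 16), against 0.05 over all genes tested. Folds are on that scale too and come out too small where a gene is dim.

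HLA-DRA encodes the alpha chain of HLA-DR. In U87 its intensity was 140.9, 70.2 and 478.9 on the PS arrays, against 938.7, 771.8 and 968.4 on the CB arrays. In MDA435 it was 723.6, 1516.9 and 1901.6 on the PS arrays, against 3644.5, 2958.1 and 3185.9 on the CB arrays. All PS arrays lay below all CB arrays in both lines, and the replicate 3 PS array of U87 was the highest of its group.
The PS arrays of HT1080 had 47.2, 45.2 and 34.5, against 70.3, 151.8 and 95.4 on its CB arrays. For DU145 the HLA-DRA intensities were 73.9, 73.5 and 69.3 on the PS arrays, against 124.0, 82.9 and 173.6 on the CB arrays. Both of these lines had little signal, and their fractions did not overlap. The MDA231 arrays overlapped, with 706.6, 510.0 and 244.0 in PS, against 1859.6, 472.2 and 1327.1 in CB. U251 had 2.2 to 10.6 on its PS arrays and 3.5 to 12.3 on its CB arrays, below the median of all values, which was 24.4.
The averaged change was -1.09 ± 0.19 (SE; limma, adjusted p = 1.78e-05), and by line the change of HLA-DRA was called in U87 alone, at -2.26 ± 0.46 (limma, adjusted p = 0.000539). In HT1080, DU145, MDA231 and MDA435 it was -1.02, -0.65, -1.21 and -1.33, with limma adjusted p-values of 0.111, 0.509, 0.116 and 0.0577. The second HLA-DRA probe set was also lower in the average, by -1.21 ± 0.18 (limma, adjusted p = 1.27e-06). In DU145 it read 11.5 ± 0.666 in PS and 88.1 ± 31.8 in CB (SD, n = 3 each), a change of -1.88 that passed in the limma fit of all probe sets (adjusted p = 0.00696), unlike the first probe set. Its change in MDA435, -1.45, passed there as well (limma, adjusted p = 0.0246). Of all 35240 probe sets tested, 5.43% were called lower in DU145 and 9.67% in MDA435.

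By the brightest probe sets, HLA-DPA1, the alpha chain of HLA-DP, was called lower in more lines than any other of the 5 genes. Its intensity in U87 was 916.2, 523.0 and 1631.0 on the PS arrays, against 3787.2, 2286.5 and 2619.9 on the CB arrays. The PS arrays of MDA435 gave 320.3, 497.9 and 796.5, against 1925.0, 1583.3 and 1443.5 on the CB arrays. HT1080 had 308.0, 275.0 and 188.4 in PS, against 513.6, 824.1 and 752.5 in CB. In all 3 lines every PS array lay below every CB array.
The changes were -1.60 ± 0.37 in U87, -1.67 ± 0.37 in MDA435 and -1.38 ± 0.37 in HT1080 (SE; limma, adjusted p = 0.00192, 0.00257 and 0.00612). DU145 had 181.7, 168.4 and 174.8 in PS, against 310.1, 239.5 and 328.9 in CB, again without overlap, but its change of -0.68 was not called (limma, adjusted p = 0.342). In MDA231 the HLA-DPA1 arrays overlapped, with 1586.7, 793.7 and 503.9 in PS, against 2056.2, 750.1 and 1675.7 in CB (-0.66; limma, adjusted p = 0.309). U251 had 16.7 to 24.1 in PS and 14.8 to 24.9 in CB. The averaged change was -0.99 ± 0.15 (limma, adjusted p = 2.85e-06). The other 2 HLA-DPA1 probe sets were lower in the average by -1.09 and -1.25, and both were called in the same 3 lines as the first, where 12.1% (U87), 12.8% (HT1080) and 9.67% (MDA435) of all probe sets were called lower.

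**Figure D1:**
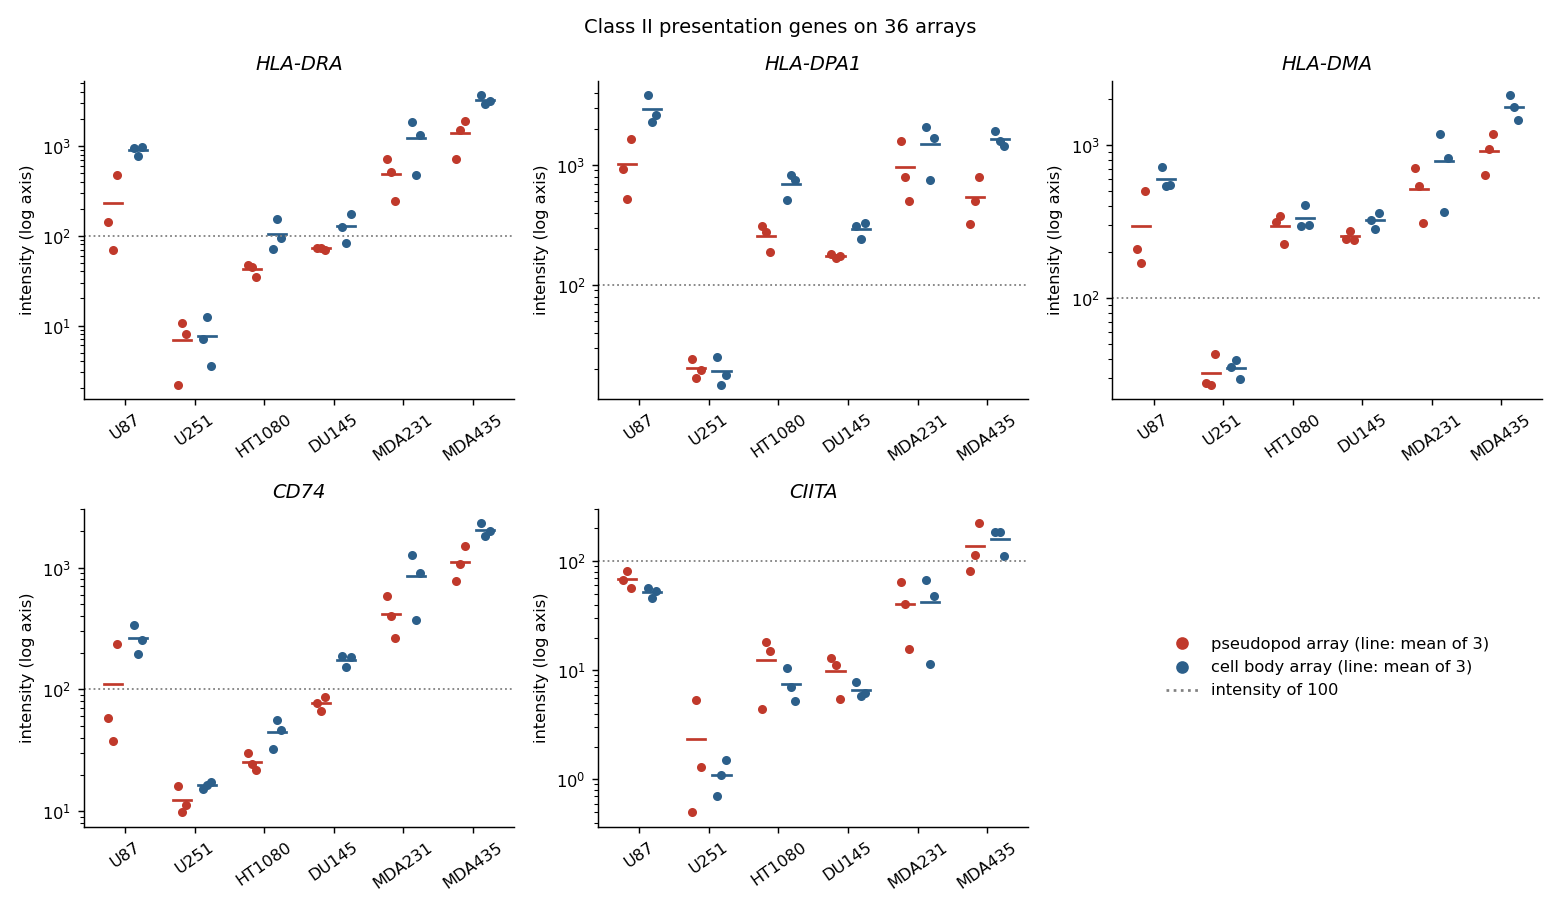
Intensity (log axis) of the 5 genes on each array, with the 3 PS arrays left of the 3 CB arrays of each line, bars at group means and a dotted line at 100. HLA-DRA reached 3644.5 on a CB array of MDA435, while the U251 arrays of all 5 genes lie below 100.

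HLA-DMA, the alpha chain of the peptide exchanger HLA-DM, had the smallest averaged fall of the 4 genes called, -0.53 ± 0.14 (SE; limma, adjusted p = 0.00162). In U87 it read 210.6, 171.2 and 505.1 on the PS arrays, against 717.1, 544.3 and 546.8 on the CB arrays. The PS arrays of MDA435 read 637.6, 945.0 and 1187.5, against 2121.1, 1785.7 and 1466.3 on the CB arrays. Neither line's fractions overlapped, but the third PS array of U87 lay just under the lowest CB array.
The change was called in U87, at -1.13 ± 0.33 (limma, adjusted p = 0.0131), and stood at -0.97 in MDA435 (limma, adjusted p = 0.0560). The U87 call was lost without its PS array 1 or 2 or its CB array 1 (limma, adjusted p = 0.0740, 0.128 and 0.0669). HT1080, with 313.8, 343.3 and 227.7 in PS against 296.5, 408.3 and 301.9 in CB, had overlapping arrays and a change of -0.18 (limma, adjusted p = 0.770). DU145 had 244.2, 274.7 and 241.5 in PS, against 324.7, 282.2 and 360.8 in CB (-0.32; limma, adjusted p = 0.684). In MDA231 the HLA-DMA arrays overlapped, with 709.2, 545.3 and 308.3 in PS, against 1186.3, 366.5 and 830.0 in CB (-0.52; limma, adjusted p = 0.383). U251 had 27.2 to 42.8 in PS and 29.8 to 39.3 in CB. HLA-DMA has 1 probe set.

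CD74, the invariant chain and also a surface receptor for the cytokine MIF, was lower by -0.84 ± 0.16 in the average (SE; limma, adjusted p = 5.32e-05). MDA435 had 775.5, 1072.2 and 1494.6 on its PS arrays, against 2311.1, 1804.9 and 2003.2 on its CB arrays. DU145 had 77.8, 65.9 and 87.3 in PS, against 186.1, 153.2 and 185.9 in CB. The fractions of both lines were apart, yet the changes of -0.91 and -1.04 were not called (limma, adjusted p = 0.137 and 0.135).
U87 was the line in which CD74 was called, at -1.43 ± 0.39 (limma, adjusted p = 0.00645), although its arrays overlapped: 58.7, 37.6 and 237.8 in PS, against 336.2, 194.7 and 253.6 in CB. The overlap came from the replicate 3 PS array. Without the replicate 2 PS array of U87 the CD74 change was -0.98 (limma, adjusted p = 0.101). MDA231 had 585.1, 401.5 and 262.5 in PS, against 1259.9, 372.1 and 900.0 in CB (-0.90; limma, adjusted p = 0.168). CD74 was below 100 in the CB of HT1080 and U251, where it ran from 32.3 to 56.3 and from 15.2 to 17.4. Of its other 2 probe sets, 1 was not tested, and the other, at 30.3 or less on every array, changed by -0.22 (limma, adjusted p = 0.0802) and was called lower in MDA435 (-0.83; limma, adjusted p = 0.0331). The CB mean of that probe set in MDA435, 25.5, was below the minimum of 100. A mean over the 3 probe sets took the averaged change of CD74 to -0.29 (limma, adjusted p = 0.00310) and that in U87 to -0.38 (limma, adjusted p = 0.176).

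CIITA, the coactivator, reached the minimum of 100 in the cell bodies of MDA435 only. There it had 81.1, 113.7 and 223.3 on the PS arrays, against 185.4, 185.9 and 111.3 on the CB arrays, and the fractions overlapped. The change was -0.26 ± 0.32 (SE; limma, adjusted p = 0.705), and it was 0.03 without the replicate 1 PS array. In U87 the PS arrays read 67.7, 81.0 and 56.7, and the CB arrays 57.2, 45.9 and 53.5. Its averaged change was 0.09 ± 0.13, with a 95% interval of -0.17 to 0.36 (limma, adjusted p = 0.586), and without the MDA231 and MDA435 arrays it was 0.21 (limma, adjusted p = 0.0440). The second CIITA probe set changed by -0.17 (limma, adjusted p = 0.116), and in MDA231 it read 36.1 ± 10.6 in PS and 66.1 ± 12.1 in CB (SD, n = 3 each; -0.66, limma, adjusted p = 0.0481), in a line where 7.45% of all probe sets were called lower. This CB mean was below the minimum of 100. These 2 CIITA probe sets therefore differed in sign in the average, and neither was called there. The third was not tested. Over all 10 probe sets tested, 7 were called lower in the average, where 24.5% of 35240 probe sets were.

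Of the 30 pairs of a gene and a line, 20 reached the cell body minimum, and in all 20 the change was below 0. The minimum is set on the cell body side of the same contrast, so the 20 are a description of the pairs it let through. HLA-DRA in HT1080 (105.8) and DU145 (126.8) lay just inside it, with changes of -1.02 and -0.65. The nearest pairs outside it were CIITA in U87 (52.2) and CD74 in HT1080 (44.9), with changes of 0.30 and -0.55. Within lines, 6 of the 20 pairs were called lower, 4 of 4 in U87 and 1 each in HT1080 and MDA435. The share of all genes called lower was 11.8% in U87, 12% in HT1080 and 8.81% in MDA435, and it was 4.9% in MDA231 and 2.16% in DU145, where 0 of 4 pairs were called in each. Unadjusted limma p-values were under 0.05 for 13 of the 20 pairs, a count with no share of all genes to set it beside. The PS arrays lay below the CB arrays without overlap in 13 pairs: 4 of 4 in DU145, 4 of 5 in MDA435, 3 of 4 in U87, 2 of 3 in HT1080 and 0 of 4 in MDA231. Among all genes at the minimum, the share was 23.3% for HT1080, 19.3% for U87, 17.7% for DU145, 15.7% for MDA435 and 12.9% for MDA231.

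**Figure D2:**
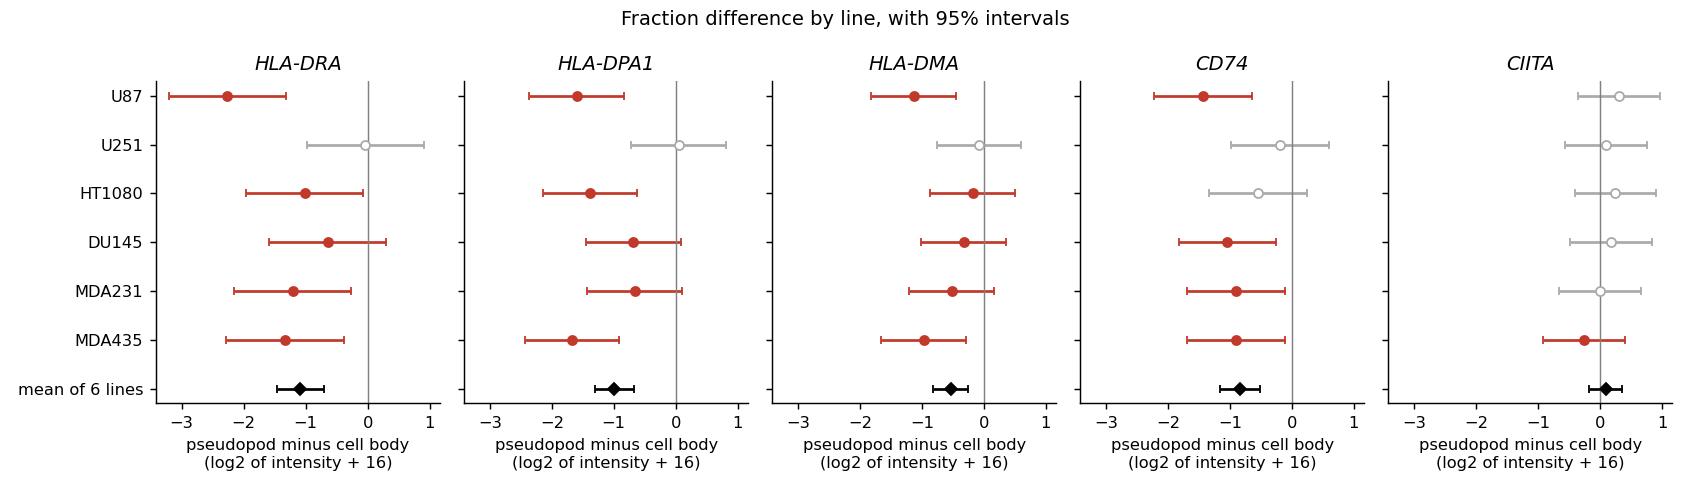
Pseudopod minus cell body on the scale of log2(intensity + 16) for each gene and line, with 95% intervals; filled red points are pairs at the cell body minimum of 100, open grey points are below it, and black diamonds are the mean of 6 lines. Filled points all lie below 0, from -2.26 for HLA-DRA in U87 to -0.18 for HLA-DMA in HT1080.

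Whether the fraction change differed between lines was tested with the moderated F test over the 6 lines. It called 0 of the 5 genes, where 1.18% of all genes were called, and 0 over the 5 lines other than U251, where 0.968% were. Unadjusted p-values were under 0.05 for 2 genes, HLA-DPA1 (0.0187) and HLA-DRA (0.0477), with limma adjusted p-values of 0.328 and 0.490. With array weights in limma, which weight all 36 arrays, 4 of the 5 genes were called. The share of all genes called in that weighted F test is not given. Array weights also raised the averaged calls over all genes, from 3204 to 4020 lower and from 4550 to 5363 higher. Without the replicate 3 PS array of U87 1 was called, HLA-DRA (limma, adjusted p = 0.0301). The larger change of HLA-DRA in U87 is thus given as a value and not as a difference from the other lines.

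The PS arrays of U87 differed among themselves. Set against the mean of the U87 cell bodies, HLA-DRA was at -2.53, -3.39 and -0.87 on PS arrays 1, 2 and 3, and CD74 at -1.86, -2.34 and -0.10. The 647 genes that were at least 2-fold lower in the average, with the genes of the lists named here left out, had medians of -1.64, -2.20 and -0.74 on the same arrays. Array 3 was the nearest to the cell bodies in all 3 measures and array 2 the farthest. DU145, where the brightest probe set of no member was called, had medians of -0.78, -0.79 and -0.67 for these 647 genes, HT1080 -1.61 to -1.83, MDA435 -1.06 to -1.45 and MDA231 -0.80 to -1.09. U251 had -1.18 to -1.31 with no class II signal to set beside it. The part of this array-wide difference in the class II values was not tested.

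**Figure D3:**
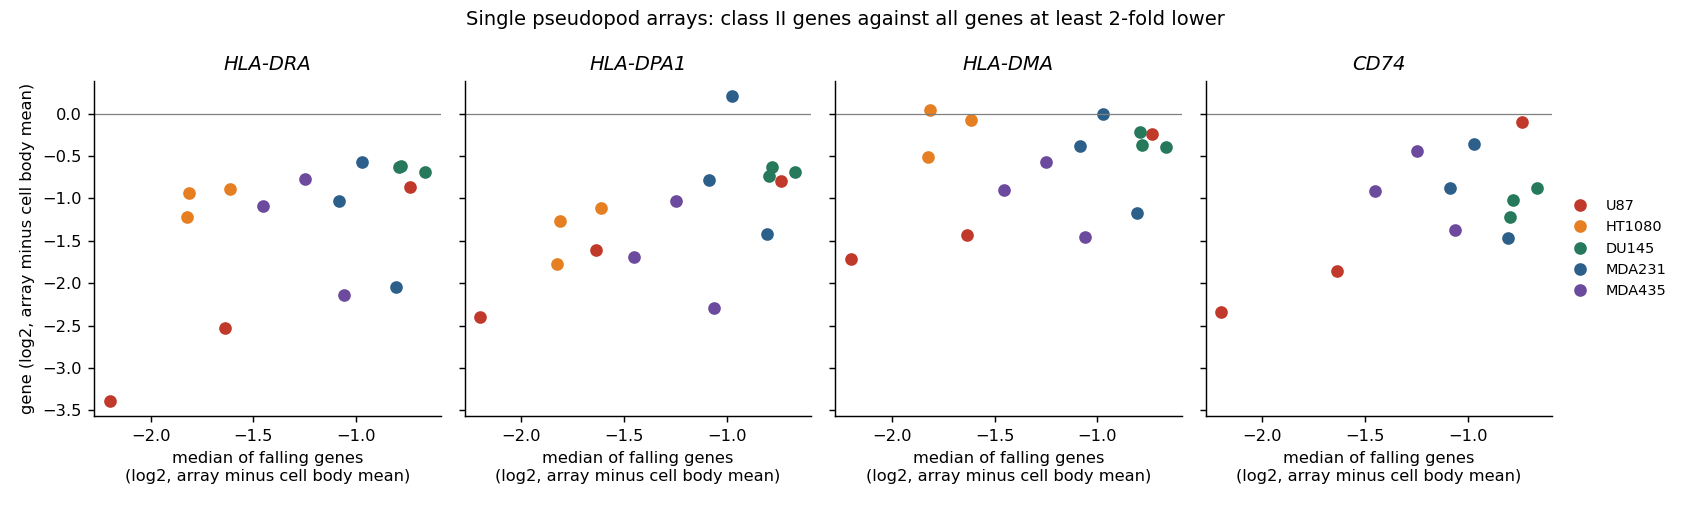
For each PS array of a line at the minimum, the change of a class II gene from the mean of its line's cell bodies (vertical) against the median change of 647 genes at least 2-fold lower in the average (horizontal), both on the scale of log2(intensity + 16). The 3 U87 arrays spread most on the horizontal axis, with HLA-DRA at -3.39 on the array where the 647 genes were at -2.20. Points of 1 line share their cell body arrays.

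Some arrays of MDA231 and MDA435 stood apart in CDH1, the epithelial cadherin. By the brightest probe sets, the values of HLA-DRA, HLA-DPA1, HLA-DMA and CD74 went with that split in both lines. CDH1 read 4.5, 13.7 and 1299.2 on the PS arrays of MDA231, against 8.2, 1777.5 and 2.2 on its CB arrays. It read 2072.7, 921.5 and 33.2 on the PS arrays of MDA435, against 32.8, 1044.1 and 2463.0 on its CB arrays. EPCAM, another epithelial surface protein, was high on the same 6 arrays, at 2058.1 to 3736.7. In MDA435 the melanocytic factor SOX10 stayed between 883.6 and 2450.1 on all 6 arrays, and in MDA231 it was at most 29.5.
Among the MDA231 arrays low in CDH1, HLA-DRA was 706.6 and 510.0 in PS, against 1859.6 and 1327.1 in CB. On the pair high in CDH1 it was 244.0 in PS, against 472.2 in CB. Within each of these sets HLA-DPA1, HLA-DMA and CD74 were likewise lower on every PS array than on every CB array, so the overlaps described for MDA231 lay between the sets. These 2 arrays also had the lowest CIITA of their fractions by its brightest probe set, 15.7 in PS and 11.4 in CB, and the highest by its second, 48.1 in PS and 76.1 in CB.
In MDA435 the array low in CDH1 was replicate 3 of PS and replicate 1 of CB. By the brightest probe sets, it was the highest of its fraction in HLA-DRA (1901.6 in PS and 3644.5 in CB) and likewise in HLA-DPA1, HLA-DMA and CD74. By the brightest probe set of CIITA, PS replicate 3 was the highest too (223.3), but CB replicate 1 (185.4) lay just under CB replicate 2 (185.9). Not all other probe sets followed. The second HLA-DRA probe set was higher on PS replicate 2 (1195.1) than on PS replicate 3 (1148.2). Another HLA-DPA1 probe set was higher on CB replicate 2 (924.6) than on CB replicate 1 (784.7).
Without the 6 arrays high in CDH1, the averaged changes were -1.04 for HLA-DRA, -0.93 for HLA-DPA1, -0.82 for CD74 and -0.53 for HLA-DMA, all still called in limma (highest adjusted p = 0.000897). MDA435 was then left with 1 array per fraction, assumed to vary like the other groups, and its HLA-DPA1 change of -1.26 was no longer called (limma, adjusted p = 0.235). Without all MDA231 and MDA435 arrays the 4 averaged changes were -0.99, -0.91, -0.80 and -0.43 for HLA-DRA, HLA-DPA1, CD74 and HLA-DMA, and all 4 were called. DU145 varied in CDH1 too, with 319.0, 1488.7 and 1349.9 in PS, against 2237.2, 2020.0 and 857.1 in CB. All of its arrays were kept in these fits. Lowest in CDH1 were its PS array 1 and CB array 3. By the brightest probe sets these had the highest HLA-DRA (73.9 and 173.6) and HLA-DPA1 (181.7 and 328.9) of their fractions. For HLA-DMA this held in CB only, and for CD74 in neither fraction.

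**Figure D4:**
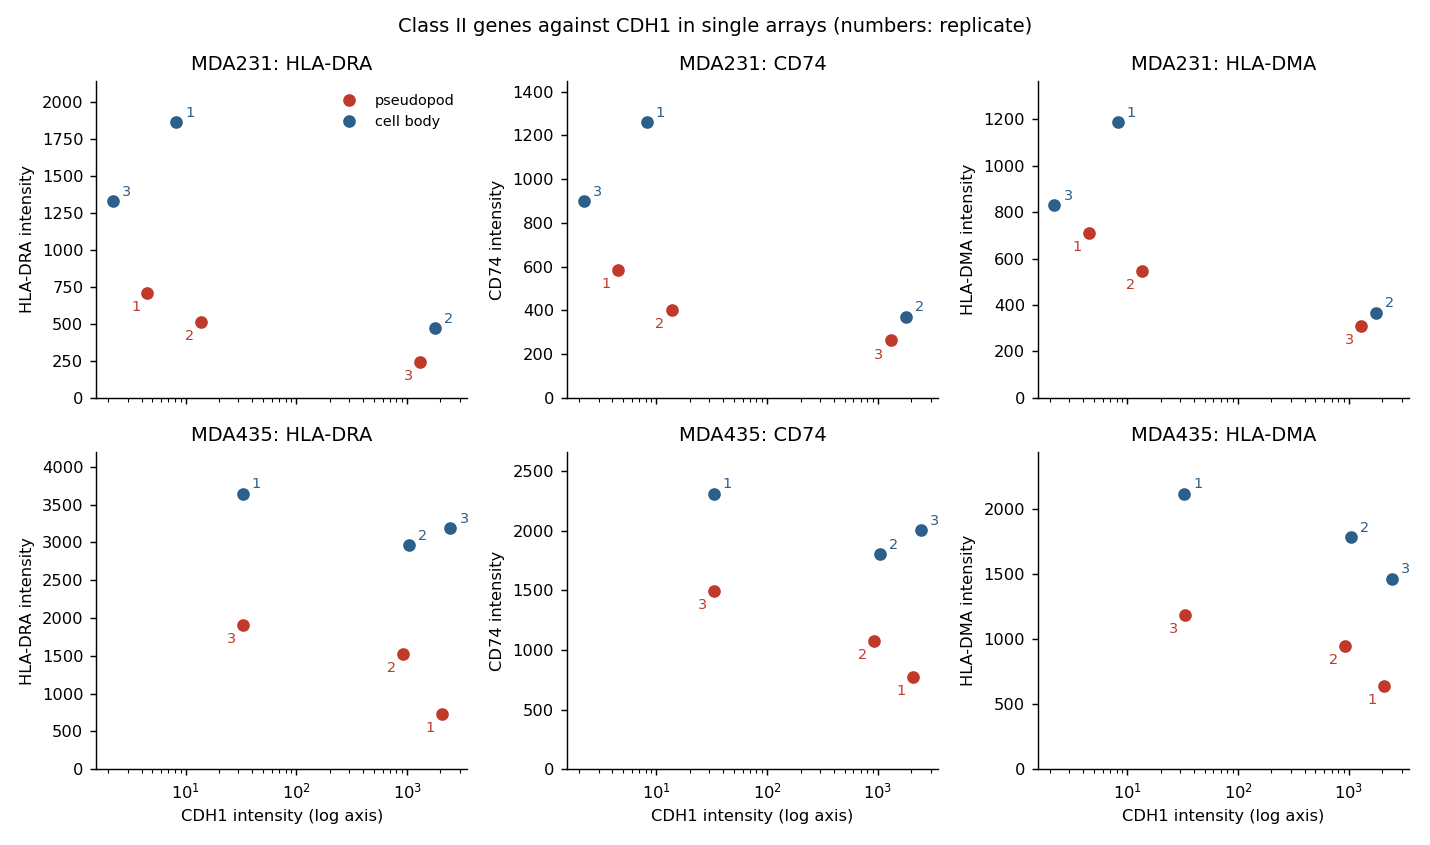
Intensity of HLA-DRA, CD74 and HLA-DMA against CDH1 (log axis) on the single arrays of MDA231 and MDA435, numbered by replicate, PS in red and CB in blue. The MDA231 arrays with CDH1 of 1299.2 (PS) and 1777.5 (CB) had the lowest HLA-DRA of their fractions.

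The level in cell bodies differed between lines for all 5 genes (limma F test, 5 of 5 called), as it did for 80.6% of all genes. By their brightest probe sets, MDA435 had the highest cell body level of 4 of the genes, and U251 had the lowest of HLA-DRA, HLA-DPA1, HLA-DMA and CD74. Relative to the mean of the other 5 lines, HLA-DRA was 3.99 ± 0.36 higher in MDA435 on the log2 scale (SE; limma, adjusted p = 2.38e-10), and -4.56 ± 0.36 in U251 (limma, adjusted p = 9.82e-12). The same differences were 3.76 and -3.42 for CD74, 2.55 and -3.62 for HLA-DMA, 1.74 and -4.94 for HLA-DPA1, and 2.44 and -1.56 for CIITA, all of which were called in limma. Of all genes, 23.8% were called higher in MDA435 and 26.2% lower in U251 in the same contrasts.
In descending order, HLA-DRA in cell bodies was 3263 ± 350 in MDA435, 1220 ± 700 in MDA231, 893 ± 106 in U87, 127 ± 45.4 in DU145 and 106 ± 41.7 in HT1080, with U251 last at 7.63 ± 4.42 (SD, n = 3 each). MDA231 and U87 did not differ beyond their spread, nor did DU145 and HT1080 (limma, adjusted p = 0.699 and 0.752). The other 3 steps of that order did. The second HLA-DRA probe set separated DU145 from HT1080 (88.1 and 19.3; limma, adjusted p = 0.00650), and not HT1080 from U251 (0.0657). Of all probe sets, 33.0% were called between DU145 and HT1080 and 35.5% between HT1080 and U251. Most line pairs differed in many genes: of all genes, 34.0% were called between MDA435 and MDA231, 44.6% between MDA231 and U87, 42.9% between U87 and DU145, 37.9% between DU145 and HT1080 and 40.7% between HT1080 and U251. The shares were 46.0% for U87 and MDA435, 36.8% for MDA231 and HT1080, 41.9% for DU145 and U251 and 34.4% for U87 and HT1080, pairs that are neighbours for other members. HLA-DPA1 had another order, with U87 first at 2898 ± 788, then MDA435 at 1651 ± 248, MDA231 at 1494 ± 672, HT1080 at 697 ± 163, DU145 at 293 ± 47.1 and U251 at 19.2 ± 5.19. Its first 3 lines were not separated from their neighbours (U87 and MDA435, limma, adjusted p = 0.0868; MDA435 and MDA231, 0.670), and the later steps were. The other 2 HLA-DPA1 probe sets did separate MDA435 from MDA231 (limma, adjusted p = 0.0282 and 0.0297), where 30.4% of all probe sets were called, and did not separate HT1080 from DU145 (0.0942 and 0.542). On 1 of them MDA435, at 1169, stood above U87, at 899, without passing (0.573).
HLA-DMA was 1791 ± 327 in MDA435, 794 ± 411 in MDA231, 603 ± 99.1 in U87, 336 ± 63.0 in HT1080, 323 ± 39.3 in DU145 and 34.9 ± 4.80 in U251. MDA435 stood above MDA231 and DU145 above U251 (limma, adjusted p = 0.00298 and 8.17e-08), and the 3 steps between them did not pass. CD74 was 2040 ± 255 in MDA435, 844 ± 447 in MDA231, 262 ± 71.1 in U87, 175 ± 18.9 in DU145 and 44.9 ± 12.1 in HT1080, with U251 again last at 16.3 ± 1.10. U87 and DU145 did not differ beyond their spread in CD74 (limma, adjusted p = 0.308), nor did HT1080 and U251 (0.0644). HT1080 thus had HLA-DPA1 well above U251 (697 against 19.2) and CD74 that was not separated from it.
CIITA was 161 ± 42.9 in MDA435, 52.2 ± 5.76 in U87, 42.4 ± 28.4 in MDA231, 7.53 ± 2.64 in HT1080, 6.60 ± 1.06 in DU145 and 1.10 ± 0.400 in U251. MDA435 stood above U87 (limma, adjusted p = 0.00102) and MDA231 above HT1080 (0.00461). The values of HT1080, DU145 and U251 lay below the median of all values, 24.4, and have no order. The second CIITA probe set had another order, with 66.1 in MDA231, 49.0 in U87, 45.2 in MDA435, 39.2 in HT1080, 26.5 in U251 and 21.4 in DU145, and did not separate MDA435 from U87 (limma, adjusted p = 0.767), where 41.3% of all probe sets were called. HT1080 and DU145 were among the 3 lines with CIITA below 10 by its brightest probe set. On every cell body array their HLA-DMA and the brightest HLA-DPA1 probe set were between 239.5 and 824.1. The other 2 HLA-DPA1 probe sets ran from 105.6 to 170.2 in cell bodies of HT1080 and from 42.0 to 101.5 in those of DU145.

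Blood cells, some of which carry class II molecules, were looked for by 11 markers. PTPRC, the leukocyte phosphatase CD45, was at most 20.8 on any array, SPI1 at most 9.6 and TYROBP at most 17.6. Others were higher: CSF1R, a macrophage receptor, reached 197.7, CD79A 111.9, LYZ 85.7, CD3E 80.4 and CD14 71.1. CSF1R was highest in U87, from 156.4 to 197.7 in PS and from 151.1 to 167.9 in CB, and ran from 101.1 to 128.0 in PS and from 89.4 to 103.5 in CB of HT1080. The sum of the 11 markers ran from 145.5 to 395.4 over PS arrays and from 150.8 to 409.6 over CB arrays. In MDA435, the line highest in HLA-DRA, it ran from 214.5 to 250.9 in PS and from 179.2 to 265.7 in CB. Of 7 markers tested, 1 was called lower in pseudopods and 0 higher, against 20.8% and 29.5% of all genes. The marker called was CD14 (-0.18, limma adjusted p = 0.0341), which was dim. Its cell body means ran from 0.80 in HT1080 to 58.7 in MDA231. The part of blood cell RNA in the class II values was not tested.

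Most of the other chains of the class II family were lower in pseudopods too. Of 12 in the list, 9 were measured and tested, 6 of these were called lower and 0 higher, against 20.8% and 29.5% of all genes, and their median change was -0.64. HLA-DMB, the partner of HLA-DMA, changed by -1.12 ± 0.20 (SE; limma, adjusted p = 1.91e-05). Its mean in MDA435 was 282 ± 120 in PS and 1506 ± 787 in CB (SD, n = 3 each). HLA-DRB1, a beta chain of HLA-DR, changed by -0.87 and averaged 1626 ± 908 in PS and 3861 ± 692 in CB of U87. HLA-DPB1, the partner of HLA-DPA1, changed by -0.60, and in HT1080 it averaged 228 ± 29.3 in PS and 193 ± 47.3 in CB, a difference of 0.24 that was not called (limma, adjusted p = 0.721), while HLA-DPA1 was called lower there. HLA-DQA1 and HLA-DQB1, the chains of HLA-DQ, changed by -0.64 and -0.83 in the average and were called in U87 and MDA435, the lines with most signal. HLA-DRB4 was called lower too (limma, adjusted p = 5.35e-05), and in MDA435 it ran from 3.8 to 39.3 in PS and from 116.2 to 176.3 in CB.
HLA-DOA, a chain of the DM inhibitor HLA-DO, missed the threshold in the average (-0.32; limma, adjusted p = 0.0670). It was at 363 ± 176 in PS and 894 ± 327 in CB of MDA435 and was called lower there (-1.30; limma, adjusted p = 0.0124). HLA-DOB and HLA-DQB2 changed by 0.04 and 0.03. The DRB and DQB genes have near-identical copies whose transcripts can bind the same probes, so their values are uncertain as to the gene. HLA-DRB3, HLA-DRB5 and HLA-DQA2 were not analysed here.

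The enzymes that degrade antigen and the invariant chain were lower as well. In the list of compartment enzymes and MARCH ligases, 9 of the 11 genes tested were called lower and 1 higher, against 20.8% and 29.5% of all genes, with a median change of -1.15. LGMN, the asparaginyl endopeptidase legumain, changed by -1.46 ± 0.11, and CTSS, the cathepsin that trims the invariant chain in antigen-presenting cells, by -1.15 ± 0.17 (SE; limma, adjusted p = 1.60e-11 and 1.28e-06). CTSS averaged 128 in PS and 505 in CB of U87. SPPL2A, the intramembrane protease that clears the last fragment of CD74, changed by -1.26, CTSD by -1.34, CTSV by -1.18, CTSF by -1.17, CTSL by -1.11, CTSB by -0.91 and CTSH by -0.58. Levels differed by line, and CTSH was below 24.4 in the cell bodies of U87. In U251, which lacks class II signal, LGMN ran from 145.8 to 191.5 on the PS arrays and from 456.8 to 631.5 on the CB arrays. The ligase MARCHF8, which ubiquitinates class II and other surface proteins, was higher, by 0.24 (limma, adjusted p = 0.0139), and MARCHF1 changed by -0.05. IFI30 was not analysed here.

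Most of the factors that bind class II promoters were higher in pseudopods. Of 7 tested, 0 were called lower and 5 higher, with a median change of 0.26, where 29.5% of all genes were called higher. RFX5 and RFXANK, subunits of the RFX complex, changed by 0.38 each (limma, adjusted p = 0.00447 and 8.61e-05). NFYC and NFYB, subunits of NF-Y, changed by 0.44 and 0.26, and CREB1 by 0.25. RFXAP (0.20) and NFYA (-0.13) were not called. In U87 RFX5 averaged 881 ± 61.6 in PS and 574 ± 97.1 in CB (SD, n = 3 each), while HLA-DRA averaged 230 ± 218 in PS and 893 ± 106 in CB. All 7 factors were at 100 or more in the cell bodies of all 6 lines, U251 included, where RFX5 was at 806 ± 48.5 in PS and 746 ± 105 in CB.

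Interferon gamma is the classic inducer of CIITA outside professional antigen-presenting cells, and few genes of its pathway were called. Of 9 tested, 1 was called lower and 2 higher, smaller shares than the 20.8% and 29.5% of all genes, with a median change of -0.01. The one lower was IFNGR1, the ligand-binding receptor chain, at -1.54 ± 0.15 (SE; limma, adjusted p = 6.89e-10). It averaged 309 ± 23.6 in PS and 1127 ± 53.0 in CB of U251, a line without class II signal, and 1049 ± 187 in PS and 2050 ± 172 in CB of DU145 (SD, n = 3 each). The kinase JAK1 and the transcription factor IRF1 changed by 0.15 each (limma, adjusted p = 0.0379 and 0.0381). IFNGR2, JAK2, SOCS1, IRF2, GBP1 and GBP2 were not called, with changes of -0.14 to 0.08.

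Among partners of CD74, 2 of 3 genes tested were called lower and 1 higher, against 20.8% and 29.5% of all genes. MIF, the cytokine that binds CD74, changed by 0.47 ± 0.08 (SE; limma, adjusted p = 5.65e-06), opposite in sign to CD74. CD44, the signalling partner of CD74 on the surface, changed by -0.42, and the MIF receptor CXCR4 by -0.69. Of 4 costimulatory, inhibitory or adhesion molecules tested, 3 were called lower and 0 higher, against the same shares: the adhesion molecule ICAM1 (-0.94), CD274, which encodes the inhibitory ligand PD-L1 (-0.83), and CD40 (-0.42). CD80 changed by -0.03.
The class I pathway, which presents peptides from the cytosol to CD8+ T cells, was called lower in 8 of 10 genes tested and higher in 0, against 20.8% and 29.5% of all genes, with a median change of -0.95. TAP1 and TAP2, the subunits of the peptide pump of the endoplasmic reticulum, changed by -1.04 and -1.20, and TAPBP, the tapasin that bridges them to class I chains, by -0.86. The class I heavy chains HLA-B, HLA-C, HLA-E, HLA-F and HLA-G changed by -0.93, -0.76, -0.96, -1.01 and -1.42. Their probe sets can bind one another's transcripts, so these values are uncertain as to the gene. B2M, the light chain of class I molecules, changed by -0.00, with an SE of 0.08 (limma, adjusted p = 0.993). NLRC5, the class I coactivator related to CIITA, changed by -0.16 and was not called.

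**Figure D5:**
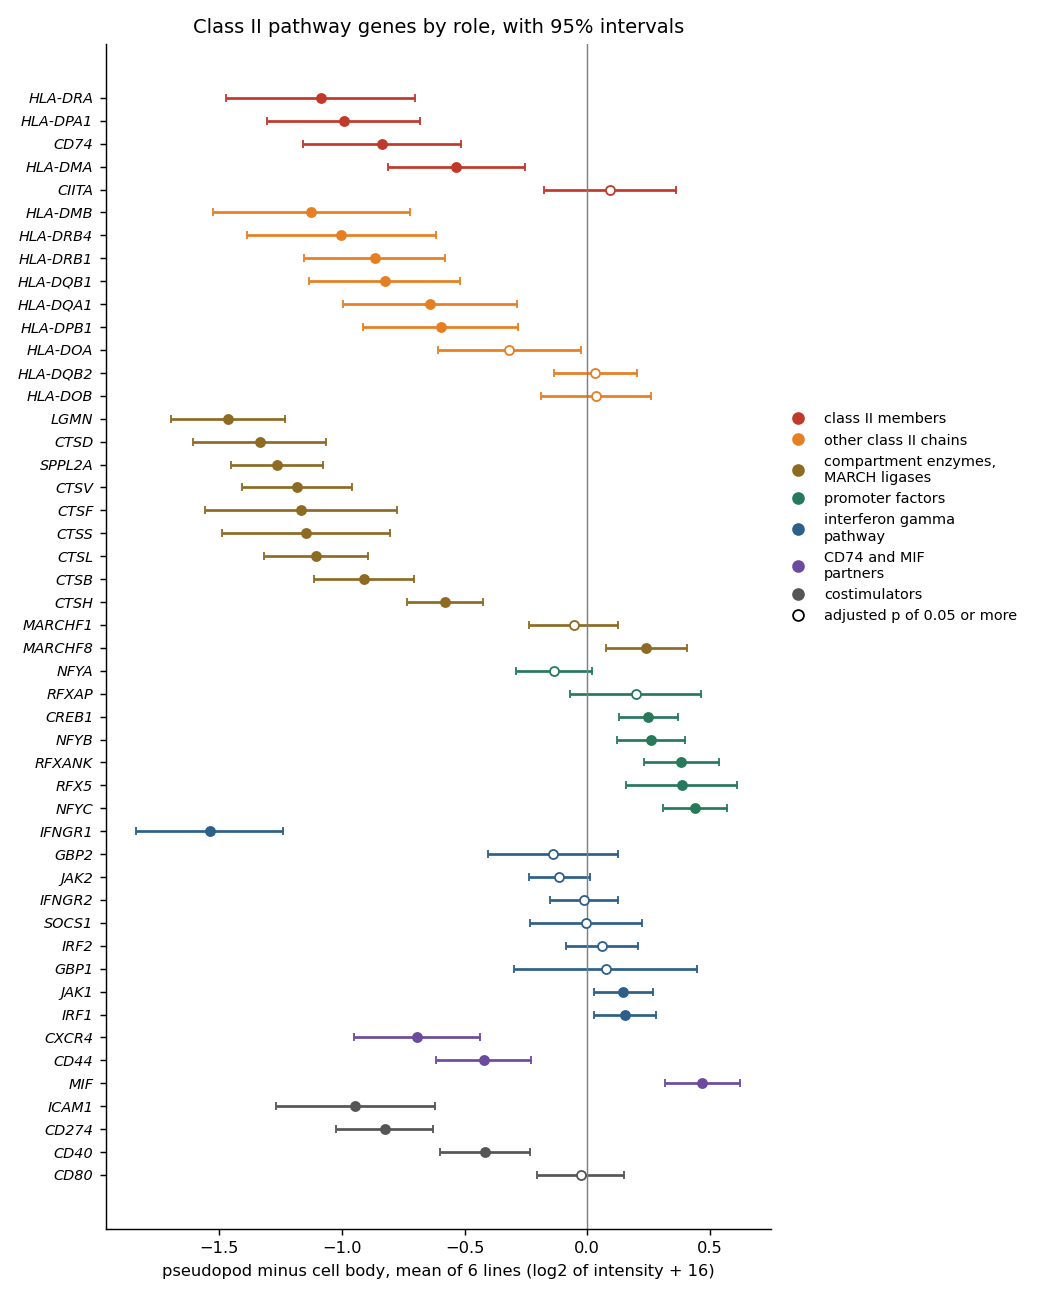
Pseudopod minus cell body averaged over 6 lines, on the scale of log2(intensity + 16), with 95% intervals, for the class II members and the related genes by role; open points had an adjusted p of 0.05 or more in limma. The class II chains reach -1.12 (HLA-DMB) and the enzymes -1.46 (LGMN), while the promoter factors lie between -0.13 and 0.44.

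Over the 36 arrays, HLA-DRA was most like other class II genes, and the nearest genes of the other members were mixed or, for CIITA, of other kinds. The likeness is Pearson's r on the log2 scale, and it describes arrays that share lines, fractions and, between members, the same hybridisations. HLA-DRA was most like CD74 (0.96), HLA-DMB (0.94), the pseudogene HLA-DRB6 (0.94), HLA-DRB1 (0.93) and HLA-DMA (0.93). CD74 was most like HLA-DRA (0.96), INPP4B (0.93), HLA-DMB (0.92), DCLRE1C (0.91) and HLA-DQB1 (0.89). HLA-DMA was most like HLA-DRA (0.93), AHR (0.93), TRIB1 (0.92), HLA-DRB6 (0.92) and GPSM1 (0.91). HLA-DPA1, whose order of lines differed, was most like HLA-DRB6 (0.91), AHR (0.91), HLA-DRB1 (0.90), FXYD5 (0.90) and ARMCX3 (0.89). CIITA was the only one of the 5 with no class II gene among its nearest 5, which were ARHGAP24 (0.94), LINC00518 (0.91), AHRR (0.90), INPP4B (0.90) and C11orf24 (0.90). Between members r ran from 0.71 (HLA-DPA1 and CIITA) to 0.96 (HLA-DRA and CD74).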

How the data were processed

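The deposited table gives linear intensity for 54593 probe sets, with a column for each array. RMA and Partek appear in the submitters' processing notes with neither a role nor a version, and RMA values would be on a log2 scale. Neither labels nor headers name the program behind the deposited intensity, which is thus not given in the sources used. Their mean without the top and bottom 2% of probe sets was 149.18 to 149.59 on every array, and their medians were 18.2 to 30.6. The planned design allowed for log2 or linear values, and log2(intensity + 16) was computed from the deposited intensity values. The platform annotation pairs 41074 probe sets with 1 symbol, and the 1798 with several and the 11721 with none were not named. The brightest probe set by mean over all arrays stood for each of 19775 genes. A gene or probe set was tested if its mean in at least 1 group was 24.4 or more, which is the median of the whole table, and this left 15399 genes and 35240 probe sets. The arrays' number limits the precision.

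The model was fitted in limma 3.58.1 (R 4.3.3) to the means of 12 groups, leaving 24 degrees of freedom for the spread, with Benjamini-Hochberg adjustment over all genes or probe sets tested. The fit was tested on simulated data. Figures were drawn in Python 3.11.15 with matplotlib 3.10.9. Named genes are the 5 members with all probe sets, the listed pathway genes that were called in the average or at 100 or more in cell bodies, the 5 genes most like each member, and CDH1, EPCAM and SOX10 by array; listed genes that were not called are named too, chosen after their values were seen. Members and lists were chosen with earlier results of these data known. Alternatives covered scaling, pseudocount, filter, probe set rule, array weights, the replicate block, lines as units and arrays left out. Promoter windows are from RefSeq (GRCh38.p14), and the X-like letters searched in them were chosen, and later shortened, with the windows in view.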

Additional observations from a re-analysis of the deposited data

How the results depend on the processing

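The averaged falls of HLA-DRA, HLA-DPA1, CD74 and HLA-DMA kept their direction and their call under every alternative that gave them a value, also with the 6 lines as units (limma, highest adjusted p = 0.0116), and under every array left out in turn. Without probe sets shared between genes 3 members were called lower, since the 1 probe set of HLA-DMA is of that kind and gave no value. The averaged change of CIITA was -0.024 with the mean of all its probe sets (limma, adjusted p = 0.778) and passed without MDA231 and MDA435 (0.21). In MDA435 alone CIITA was 0.25 without the arrays high in CDH1 and between -0.62 and 0.026 with 1 array left out (0.026 without PS replicate 1). The 6 pairs of gene and line called lower became 15 with array weights and 5 to 11 with 1 array left out (11 without U87 PS replicate 3 and 10 without MDA231 CB replicate 2). The count of members whose change differed between lines, 0, became 4 with array weights and 0 to 1 with 1 array left out. Array weights also raised the averaged calls over all genes, to 4020 lower and 5363 higher. Shares of all genes for the calls within and between lines under these alternatives are not given. The U87 call of HLA-DMA was lost without U87 PS replicate 1 or 2 or CB replicate 1 (limma, adjusted p = 0.0740, 0.128 and 0.0669), and that of CD74 without PS replicate 2 (0.101) or with the mean of all probe sets (0.176). HLA-DRA and HLA-DMA in MDA435 passed with quantile normalization (limma, adjusted p = 0.0211 for both) and with a pseudocount of 64 (0.0266 and 0.0354). Rises made up 58.7% of the averaged calls over all genes on the deposited scale, 67.0% after each array was shifted to one median and 62.9% after quantile normalization, with median changes of 0.05, 0.11 and 0.08. Same-numbered arrays did not pair: of 18 pairs of PS and CB arrays, 4 correlated above 0.1 (range -0.78 to 0.69). With the replicate block HLA-DRA changed by -1.09 (limma, adjusted p = 9.22e-05), and the block changed no other member's averaged call. The cause of these shifts was not tested. With 3 arrays a group, the spread limits what single lines can show, and signal near 24.4, as in U251, gives no measure of a fraction difference.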
